A study of Mus musculus with 18 samples.

Results

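The Rab GTPases of membrane traffic were described as a family in B16F10 cells, a mouse melanoma line, after knockdown of Hgs. Their rows were those of the count table whose symbol was Rab followed by a number and at most 1 letter from a to d, less Rab27a, Rab27b, Rab32 and Rab38, which serve melanosomes and exosome release. Of 57 matching rows, 53 remained, and 45 had at least 10 counts in at least 4 of the 18 libraries, out of 23453 symbols in the table. The other 8, Rab3c, Rab9b, Rab19, Rab26, Rab33a, Rab39, Rab40b and Rab42, had too few counts. The table writes Rab1, Rab7 and Rab9 for Rab1a, Rab7a and Rab9a. Rab29 stands in it under its older symbol Rab7l1, which the pattern does not match.

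Before use, cells were infected with lentivirus carrying either an shRNA to Hgs, called shHrs, or a scrambled one, called shCTL. They were then selected with the antibiotic puromycin at 2 µg per ml for 5 days. Cultures of batch 1 were 2 shHrs and 2 shCTL libraries, and cultures of batch 2 were likewise 2 and 2. Tumours were 5 shHrs and 5 shCTL libraries from cells grown in wild-type C57BL/6 female mice of 6 to 8 weeks with an intact immune system. By its title the series asks how HRS bears on immune evasion, protein homeostasis and the interferon pathway. The labels do not say that the cultures of a batch were separate ones, so p-values for cultures cover the spread from library to library, possibly a technical one. The tumours also hold host cells. In such bulk samples, fewer cells of a type and less RNA per cell cannot be told apart.

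Rab proteins are small GTPases that mark membranes. An exchange factor loads them with GTP, a GTPase-activating protein of the TBC family ends the active state, a carrier protein holds the inactive form in the cytosol, and effectors such as tethers and motors read the active form. Hrs is the ESCRT-0 protein that gathers ubiquitinated cargo on early endosomes, the compartment marked by Rab5. From there cargo returns to the surface through compartments marked by Rab4, Rab35 and Rab11 or goes on to late endosomes and lysosomes marked by Rab7.

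Library totals ran from 17.6 to 27.7 M counts (M, mega), of which the 45 Rab genes took 0.272% to 0.351%. Values are CPM, counts scaled to a common library size after TMM. Hgs stood at 35.2 and 30.4 CPM in shHrs against 95.01 and 113 CPM in shCTL cultures of batch 1. Its level in batch 2 was 44.5 and 41.3 CPM in shHrs against 97.8 and 107 CPM in shCTL cultures, and in tumours it was 16.1 to 29.2 CPM with shHrs against 95.8 to 112 CPM with shCTL. The 2 shHrs libraries of batch 1 lay farther apart over the Rab genes than the other pairs of cultures did. Their median distance from the pair's mean was 0.139 on the log2(CPM + 2) scale, against 0.0760 for shCTL of batch 1, and 0.105 for shHrs and 0.0922 for shCTL of batch 2. Melanoma markers, 8 genes such as Pmel and Tyrp1, were detected in every group and summed to 4344 CPM or more in each library. Summed over genes, markers of leukocytes (5 genes), T and NK cells (7), B cells (4), endothelium (6) and keratinocytes (4) stayed at 4.24 CPM or lower in each culture, while those of macrophages and myeloid cells (10) reached 35.1 CPM and those of fibroblasts (6) 77.4 CPM.

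Of the Rab genes, 38 had an entry among the RefSeq promoter windows of GRCm38.p6, which run from 250 bases before to 50 bases after a start site. Rab2a, Rab4a, Rab18, Rab30, Rab36, Rab37 and Rab44 had none. The upstream stretches of Rab34 and Rab11b are shown because the effect of the knockdown on both genes differed between tumours and the mean of the culture batches. Each is the part before the start site that no annotated exon covers, read 5′ to 3′ on the gene's own strand. The Rab34 stretch, chr11:78188177-78188426 on the plus strand, ends 1 base before the start site and is 250 bases long. The Rab11b stretch, chr17:33760588-33760736 on the minus strand, is 149 bases long and ends 102 bases before the start site. Capitals mark an M-box, TCATGTG, the letters that the pigment-cell factor Mitf is known to bind.
Rab34: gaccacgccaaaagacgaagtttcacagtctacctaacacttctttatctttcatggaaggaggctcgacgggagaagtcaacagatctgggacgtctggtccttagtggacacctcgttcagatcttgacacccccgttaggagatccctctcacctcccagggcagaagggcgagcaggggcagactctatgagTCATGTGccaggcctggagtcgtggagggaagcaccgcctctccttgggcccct
Rab11b: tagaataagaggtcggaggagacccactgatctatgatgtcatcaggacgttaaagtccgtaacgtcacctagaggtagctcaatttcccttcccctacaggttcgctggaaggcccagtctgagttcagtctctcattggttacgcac
The M-box of Rab34 began 54 bases before the start site. Searched on both strands, TCATGTG was in 3 of 49 windows of Rab genes (6.12%), those of Rab15, Rab28 and Rab34, and in 3.77% of all 32851 windows. CACGTG, the E-box that the lysosomal factor Tfeb is known to bind, was in 5 windows (10.2%), those of Rab5a, Rab20, Rab21, Rab23 and Rab24, against 7.15% of all windows. Neither of these motifs contains the other. A match says only that the letters are there.

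Levels within the family spanned about 3 orders on a log axis and were led by the same genes in cultures and tumours. Per kilobase of exon, the 5 highest were Rab7, Rab5c, Rab2a, Rab1 and Rab10, in that order in both settings. Rab7, the late endosome Rab, averaged 159 CPM per kb in cultures and 96.5 in tumours, and its range over the tumours, 48.0 to 119, held that of Rab5c, 85.6 to 110.05. The neighbours Rab2a and Rab1 overlapped in both settings, and so did Rab1 and Rab10. The 10 highest members held 63.2% of the family's summed level in tumours and 66.3% in cultures. At the low end, Rab44, Rab25 and Rab37 averaged 0.207, 0.151 and 0.0810 CPM per kb in tumours, and Rab44, Rab3b and Rab15 averaged 0.200, 0.143 and 0.111 in cultures. Rab17, which serves recycling in epithelial cells and the traffic of melanosomes in mouse melanocytes, ranked 13 in tumours at 21.1 CPM per kb and 38 in cultures at 3.03. Rab3a, a Rab of regulated secretion, ranked 21 in tumours at 13.8 CPM per kb and 34 in cultures at 4.78. Levels in tumours and cultures were not tested against each other. The labels do not give the sequencing run, so kind of sample and a possible difference in run cannot be told apart.

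**Figure D1:**
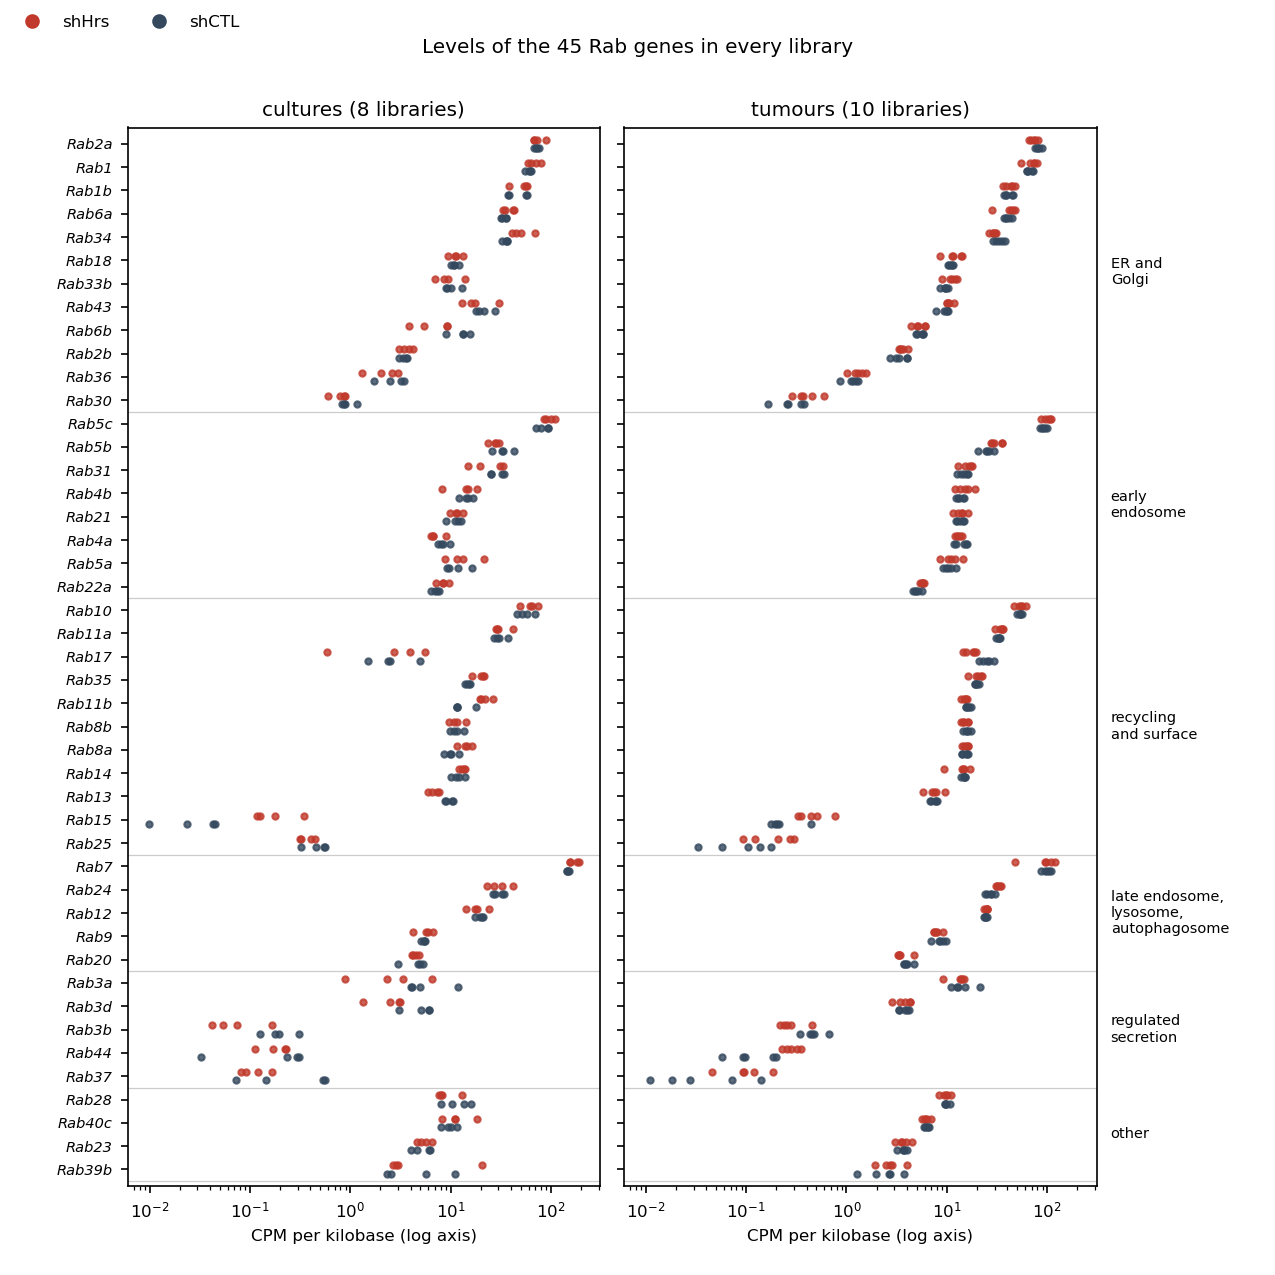
Level of each of the 45 Rab genes in CPM per kilobase of exon on a log axis, 1 point per library, in 8 cultures (left) and 10 tumours (right), grouped by membrane compartment. Rab7 and Rab5c lead in both settings, and Rab17 averages 21.1 CPM per kb in tumours and 3.03 in cultures.

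By compartment, the 12 Rab genes of the ER and Golgi held 33.5% of the family's summed level per kilobase in tumours and 33.8% in cultures. The 8 of the early endosome held 22.0% and 21.0%, the 11 of recycling and surface delivery 21.9% and 18.1%, and the 5 of late endosomes, lysosomes and autophagosomes 18.1% and 22.7%. The 5 genes of regulated secretion held 2.03% in tumours and 0.951% in cultures.

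In cultures of batch 1, no Rab gene passed the test between shHrs and shCTL, and the same was true of all genes. With edgeR's quasi-likelihood test and Benjamini-Hochberg adjustment over 12897 genes, 0 genes were called (0%), and 1210 (9.38%) had an unadjusted p under 0.05. Among the 45 Rab genes, 2 did (4.44%), Rab31 and Rab39b. DESeq2 called both, as 2 of the 220 genes it called (1.71% of genes tested), and limma voom called 0 Rab genes of 0 genes (0%). The median log2 fold change was -0.08 over the Rab genes and 0.01 over all genes. The 95% interval of the log2 fold change lay within 1 of zero for 26 of the 45.

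Rab31, an early endosome Rab that is known in human cells for an ESCRT-independent route to exosomes, stood at 75.3 and 56.5 CPM in shHrs against 131 and 123 CPM in shCTL cultures of batch 1. The groups did not overlap, and the log2 fold change was -0.95 (SE 0.23, edgeR adjusted p = 0.289). In batch 2 the order of its groups was the other way round, with 128 and 119 CPM in shHrs against 96.3 and 95.9 CPM in shCTL. The difference between the batches' effects was 1.26 on the log2 scale (SE 0.32, edgeR adjusted p = 0.108).

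Rab39b, a Rab known from neurons, stood at 9.64 and 70.6 CPM in shHrs against 8.67 and 7.83 CPM in shCTL cultures of batch 1. Replicate 2 alone was high. The log2 fold change was 2.25 (SE 0.76, edgeR adjusted p = 0.460) with that library and 0.24 without it. The same library stood apart from its partner for Rab5a, at 113 against 46.1 CPM, and for Rab43, at 169 against 89.4 CPM. It was low for Rab17, at 1.18 against 11.04 CPM, and for Rab3a, at 1.96 against 14.5 CPM. Melanoma markers summed to 8144 CPM in that library and 19292 CPM in replicate 1, against 9513 to 15271 CPM in shCTL cultures of the batch. Their part in the result was not tested. Without shHrs replicate 1 in place of replicate 2, edgeR called 6 Rab genes in batch 1, Rab3a, Rab3d, Rab5a, Rab17, Rab31 and Rab39b, with 1496 calls over all genes, and the lone shHrs library was then assumed to vary like the other groups.

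Other Rab genes of batch 1 with small unadjusted p-values did not pass either. The slow-recycling Rab15 was rare, with 10 and 12 counts in shHrs against 5 and 2 counts in shCTL libraries. Rab3d of secretory granules stood at 13.0 and 5.68 CPM in shHrs against 25.4 and 13.0 CPM in shCTL. Rab13, which serves cell junctions, stood at 16.8 and 13.6 CPM in shHrs against 24.3 and 20.8 CPM in shCTL. Rab36 of the Golgi stood at 12.5 and 8.04 CPM in shHrs against 21.3 and 10.8 CPM in shCTL. Of these, Rab15 and Rab13 did not overlap between the groups. Over the family, 19 of 45 Rab genes did not overlap in batch 1, 10 higher and 9 lower in shHrs, against 32.1% of all genes, 15.3% higher and 16.8% lower.

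In cultures of batch 2, Rab6b fell to 0.312 of its shCTL level, and no other Rab gene passed. In simulations of batch 2, 2% of 2-fold and 64% of 4-fold changes were recovered. Each size of change was given to 100 of 12897 genes, fewer than stood out in the data, so recovery there may differ. Not passing does not by itself exclude a 2-fold change. Over all 12897 genes 520 were called (4.03%), 206 higher (1.6%) and 314 lower (2.43%) in shHrs, against 0 higher and 1 lower of 45 Rab genes. At an unadjusted p under 0.05 stood 9 of 45 Rab genes, 5 higher and 4 lower, and 27.9% of all genes. The median log2 fold change was 0.01 over the Rab genes and -0.05 over all genes, and the median size 0.25 and 0.50. The interval lay within 1 of zero for 24 of the 45 Rab genes, against 30.4% of all genes.

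**Figure D2:**
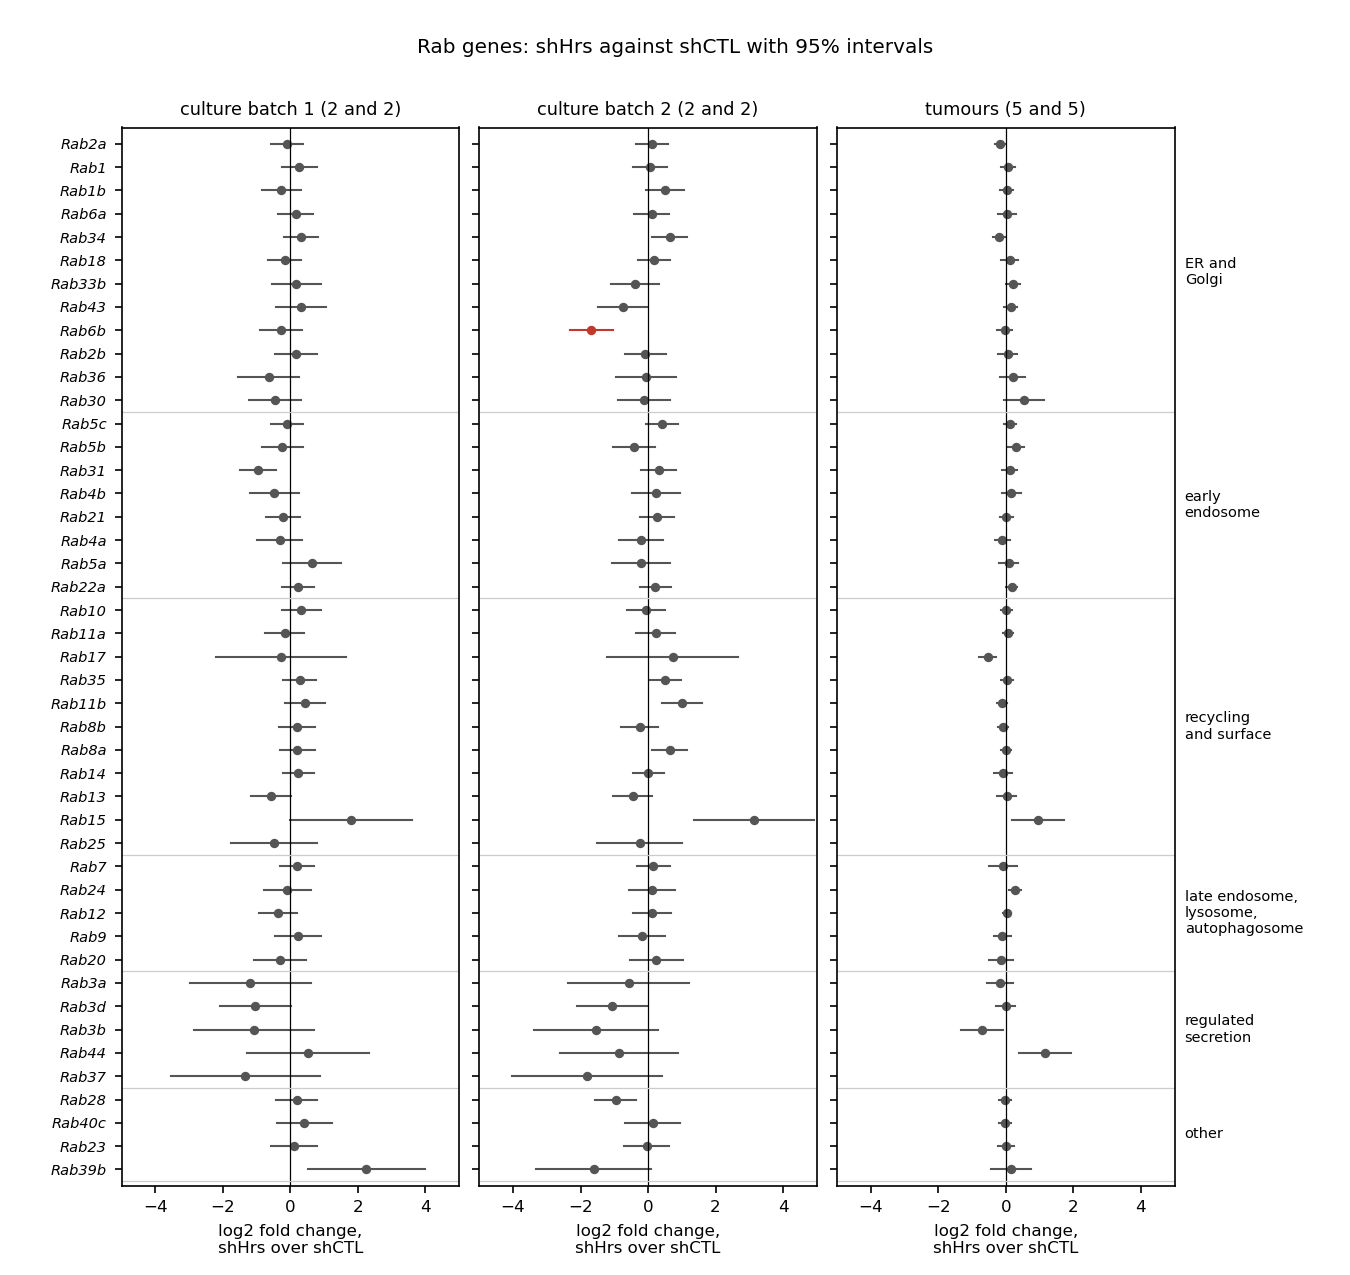
Log2 fold change of shHrs over shCTL with its 95% interval for each Rab gene in culture batch 1, culture batch 2 and tumours, from edgeR. Rab6b in batch 2, in red, is the call among them, and intervals in tumours are the narrowest, with 39 of 43 within 1 of zero.

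Rab6b, the paralog of Rab6a known from brain and, like it, a Rab of Golgi traffic, lies on chromosome 9 from 103111787 to 103185276 of GRCm38 (mm10). It stood at 27.3 and 19.4 CPM in shHrs (mean 23.4 ± 5.57, SD, n = 2) against 66.8 and 78.4 CPM in shCTL cultures of batch 2 (72.6 ± 8.22, n = 2). The groups were far apart, with a log2 fold change of -1.68 (SE 0.28, edgeR adjusted p = 0.0261). In batch 1 Rab6b stood at 46.0 and 46.4 CPM in shHrs against 66.4 and 45.6 CPM in shCTL, and these groups overlapped. The effect in batch 2 minus that in batch 1 was -1.40 (SE 0.38, edgeR adjusted p = 0.122), which did not pass. Leaving out any of the 4 batch 2 libraries kept the log2 fold change of batch 2 between -1.96 and -1.41 but ended its call (edgeR adjusted p of 0.117 without shHrs replicate 1, 0.300 without shHrs replicate 2, 0.175 without shCTL replicate 1 and 0.160 without shCTL replicate 2). Each of those fits called 0 of all genes in batch 2.

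Melanoma markers summed to 5231 and 4344 CPM in shHrs against 13874 and 11592 CPM in shCTL cultures of batch 2. Most of the sum is Tyrp1, Dct and Pmel, which averaged 2310, 1168 and 291 CPM in shHrs against 5732, 3991 and 1873 CPM in shCTL. Mitf and Sox10 of the same list overlapped, at 147 to 209 and 489 to 521 CPM in shHrs against 135 to 185 and 402 to 550 CPM in shCTL, with the higher means in shHrs. Rab38, a melanosome Rab left out of the family here, was lower too, at 171 and 197 CPM in shHrs against 432 and 505 CPM in shCTL, with a log2 fold change of -1.39 (SE 0.31, edgeR adjusted p = 0.0495). The part of these genes in the value of Rab6b was not tested.

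The balance of Rab6a and Rab6b shifted with it. Rab6a, the widely expressed paralog, stood at 157 and 129 CPM in shHrs against 123 and 134 CPM in shCTL cultures of batch 2, and these overlapped. Rab6b made up 10.1% to 11.4% of the pair's summed level per kilobase in shHrs against 28.7% to 30.2% in shCTL cultures of batch 2, and 17.7% to 21.6% against 22.2% to 27.2% in batch 1. In tumours the share was 10.6% to 13.6% with shHrs and 10.8% to 12.9% with shCTL. These shares are descriptions with no test of their own.

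Rab11b, a Rab of recycling endosomes, lies on chromosome 17. In batch 2 this gene had 137 and 161 CPM in shHrs against 71.7 and 70.4 CPM in shCTL cultures, with no overlap and a log2 fold change of 1.02 (SE 0.26, edgeR adjusted p = 0.0627). Batch 1 had 121 and 124 CPM in shHrs against 70.9 and 110 CPM in shCTL (0.43, SE 0.26, edgeR adjusted p = 0.625). DESeq2 called it in batch 2, with an adjusted p of 0.00823, beside Rab6b, Rab15 and Rab28 and 15.4% of all genes. With each culture left out in turn, the log2 fold change of Rab11b in batch 2 ran from 0.95 to 1.12. Whether Rab11b passed edgeR's test there depended on which cultures were in the fit. Its paralog Rab11a stood at 89.9 and 125 CPM in shHrs against 87.04 and 90.9 CPM in shCTL cultures of batch 2, which overlapped. Rab11b made up 38.6% to 42.6% of the pair's level per kilobase in shHrs against 27.4% to 28.7% in shCTL cultures of that batch, and 40.4% to 41.4% against 23.6% to 39.8% in batch 1.

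**Figure D3:**
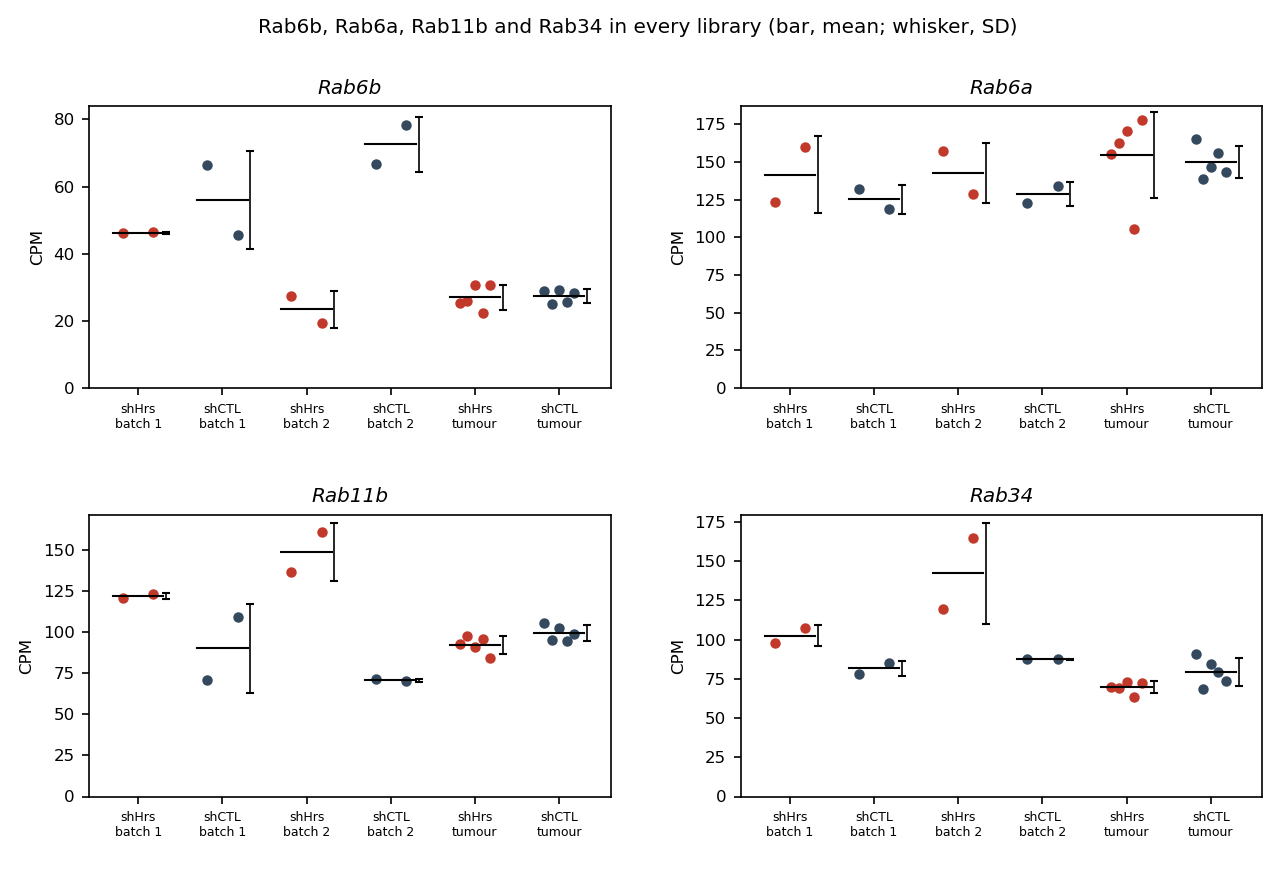
CPM of Rab6b, Rab6a, Rab11b and Rab34 in every library of the 6 groups, with the mean as a bar and the SD as a whisker. Rab6b stands at 27.3 and 19.4 CPM in shHrs of batch 2 against 66.8 and 78.4 CPM in shCTL, and at 22.3 to 30.6 CPM in shHrs tumours against 25.04 to 29.2 CPM in shCTL tumours.

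Rab34, a Rab of the Golgi that is also needed for cilia in mice, lies on chromosome 11 from 78188430 to 78192193. It stood at 120 and 165 CPM in shHrs against 87.3 and 87.6 CPM in shCTL cultures of batch 2, with a log2 fold change of 0.65 (SE 0.23, edgeR adjusted p = 0.112). Batch 1 had 97.97 and 107 CPM in shHrs against 78.1 and 85.1 CPM in shCTL. Neither batch overlapped between its groups.

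Among the remaining Rab genes of recycling and surface delivery, Rab8a, which serves exocytosis and cilia, stood at 64.7 and 76.1 CPM in shHrs against 46.6 and 40.5 CPM in shCTL cultures of batch 2. Rab35, of fast recycling, stood at 60.0 and 61.1 CPM in shHrs against 43.9 and 39.1 CPM in shCTL. Both had log2 fold changes with intervals above zero (0.64, SE 0.23, and 0.50, SE 0.21) and did not pass, with edgeR adjusted p of 0.117 for Rab8a and 0.168 for Rab35. Rab15 gave 17 and 43 counts in shHrs against 1 and 5 counts in shCTL libraries of batch 2. Its fitted log2 fold change was 3.14 (SE 0.78, edgeR adjusted p = 0.0605) and rests on those few reads. With each culture left out in turn, the log2 fold change of Rab15 in batch 2 ran from 2.47 to 4.51. Whether Rab15 passed depended on which cultures were in the fit. Rab10, of exocytosis, and Rab14, of endosome to surface traffic, overlapped between the groups in batch 2.

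Lower in shHrs cultures of batch 2 without passing were Rab28, Rab43 and Rab3d. Rab28, known from cilia and photoreceptors, stood at 36.0 and 35.1 CPM in shHrs against 61.4 and 71.8 CPM in shCTL (log2 fold change -0.95, SE 0.27, edgeR adjusted p = 0.0744). Rab43 of the ER and Golgi stood at 96.4 and 71.4 CPM in shHrs against 120 and 152 CPM in shCTL. A gene model on the same strand, Gm45140, overlaps 75.4% of the exon bases of Rab43, so its counts are uncertain. Rab3d stood at 12.8 and 10.5 CPM in shHrs against 21.2 and 25.9 CPM in shCTL. With each culture left out in turn, the log2 fold change in batch 2 ran from -1.05 to -0.85 for Rab28 and from -1.22 to -0.87 for Rab3d. Whether these 2 passed depended on which cultures were in the fit.

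The Rab genes nearest to the site of Hrs did not pass in batch 2. Rab5a, Rab5b and Rab5c, which drive fusion of early endosomes, had log2 fold changes of -0.21 (SE 0.37), -0.41 (SE 0.27) and 0.42 (SE 0.20), and none passed. Rab5c stood at 219 and 240 CPM in shHrs against 157 and 175 CPM in shCTL, and made up 71.6% to 74.8% of the level per kilobase of the Rab5 genes against 61.6% to 61.7%. In batch 1 that share was 63.2% to 69.8% in shHrs against 64.3% to 72.2% in shCTL, and these overlapped. Rab7 stood at 473 and 409 CPM in shHrs against 375 and 390 CPM in shCTL (log2 fold change 0.16, SE 0.22). Rab4a, of fast recycling, and Rab9, of retrieval from late endosomes, overlapped between the groups. Rab1b, of ER to Golgi traffic, stood at 122 and 129 CPM in shHrs against 86.4 and 84.1 CPM in shCTL (0.51, SE 0.25), while Rab1 and Rab2a had 0.05 (SE 0.22) and 0.12 (SE 0.21). Rab18, of the ER and lipid droplets, had 0.18 (SE 0.21).

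Across both batches, which share no library, 22 of 45 Rab genes (48.9%) had the same sign of log2 fold change, against 50.5% of all genes. Every shHrs library lay above every shCTL library of its batch in both batches for 6, Rab7, Rab11b, Rab15, Rab22a, Rab34 and Rab35, which is 13.3% of the Rab genes against 5.16% of all genes. Rab13 was below in both (2.22% against 5.14%). Rab5c, Rab21, Rab31 and Rab39b separated in both batches but in opposite directions (8.89% against 11.4%). In batch 2 alone, 26 of 45 did not overlap, 14 higher and 12 lower, against 69.7% of all genes, 35.0% higher and 34.7% lower. The test of the difference between the batches' effects called 0 Rab genes, against 20 of all genes (0.155%, with 0.132% higher and 0.0233% lower), and 5 Rab genes and 20.3% of all genes had an unadjusted p under 0.05. By DESeq2 it called 3, Rab6b, Rab31 and Rab39b (7.60% of all genes), and by limma voom 0 (0.101%).

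**Figure D4:**
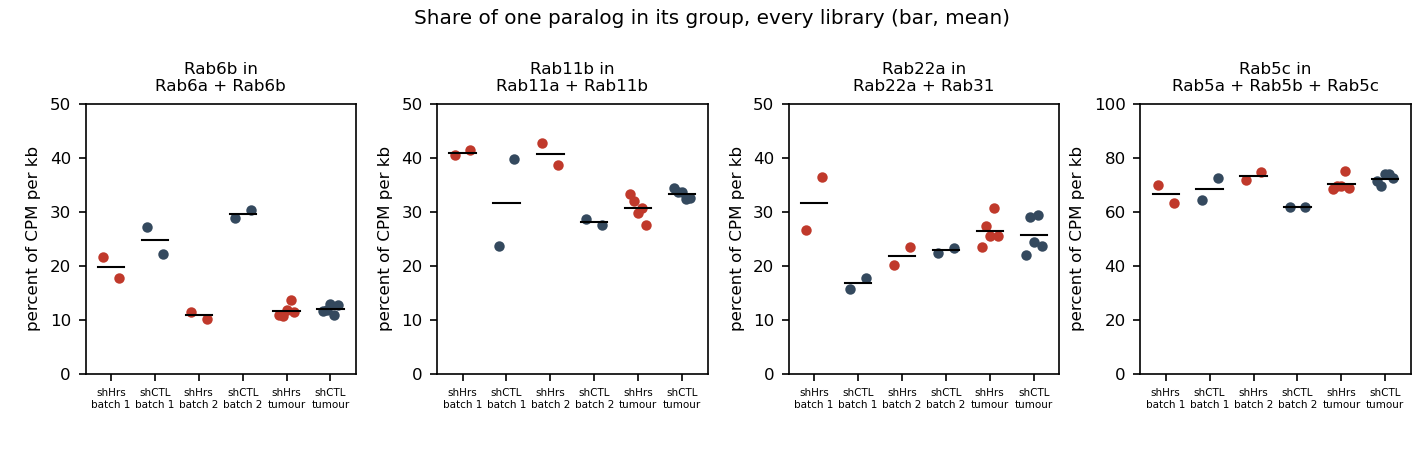
Share of Rab6b, Rab11b, Rab22a and Rab5c in the summed CPM per kilobase of their close paralogs, in percent, 1 point per library with the mean as a bar. Rab6b makes up 10.1% to 11.4% of its pair in shHrs cultures of batch 2 against 28.7% to 30.2% in shCTL cultures, and Rab22a makes up 26.6% to 36.4% of its pair in shHrs cultures of batch 1 against 15.6% to 17.7% in shCTL cultures, while in batch 2 its shares overlap, at 20.1% to 23.5% in shHrs against 22.4% to 23.3% in shCTL.

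In tumours, Rab genes stood close together in shHrs and shCTL, and none of the 43 that passed the count filter was called by edgeR. Rab25, of epithelial recycling, and Rab37, of secretory granules, had too few counts for the test, with 1 to 13 counts and 1 to 19 counts per tumour. Over 13215 genes 72 were called (0.545%), 31 higher (0.235%) and 41 lower (0.31%). At an unadjusted p under 0.05 stood 10 Rab genes (23.3%), 6 higher and 4 lower, and 14.1% of all genes. DESeq2 called 2, Rab17 and Rab24 (4.15% of all genes), and limma voom 0 (0.590% of all genes). The median log2 fold change was 0.03 over the Rab genes and 0.01 over all genes, and the 95% interval lay within 1 of zero for 39 of 43, against 82.2% of all genes.

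Rab17 came nearest to the threshold. It lies on chromosome 1 from 90958133 to 90969661. In shHrs tumours it stood at 39.2, 37.2, 28.8, 30.9 and 36.5 CPM (mean 34.5 ± 4.46, SD, n = 5), against 58.9, 50.2, 52.1, 41.7 and 45.3 CPM in shCTL tumours (49.6 ± 6.57, n = 5). Every shHrs tumour was below every shCTL tumour, and the log2 fold change was -0.53 (SE 0.11, edgeR adjusted p = 0.0679). DESeq2 gave -0.53 with an adjusted p of 0.00243. Its log2 fold change ranged from -0.58 to -0.45 when each tumour was left out in turn. In cultures Rab17 was at 11.04 and 1.18 CPM in shHrs against 9.93 and 4.96 CPM in shCTL of batch 1, and at 5.50 and 7.88 CPM in shHrs against 4.79 and 3.00 CPM in shCTL of batch 2.

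Rab24, a Rab of autophagosome clearance, stood at 70.1, 65.2, 61.8, 69.0 and 63.2 CPM in shHrs tumours against 60.9, 48.5, 55.5, 50.6 and 55.7 CPM in shCTL tumours. The groups did not overlap, with a log2 fold change of 0.28 (SE 0.08, edgeR adjusted p = 0.148). Prelid1, on the opposite strand, overlaps 62.4% of the exon bases of Rab24, and the strand setting of the counts is not given, so reads of these genes could not be told apart. Prelid1 itself stood at 414 to 539 CPM in shHrs and 399 to 535 CPM in shCTL tumours.

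Rab44, a large Rab known from mast cell granules in mice, gave 36, 22, 33, 28 and 44 counts in shHrs tumours against 21, 19, 8, 5 and 9 counts in shCTL tumours. In CPM the groups did not overlap, at 1.15 to 1.79 in shHrs and 0.288 to 1.01 in shCTL tumours, and the log2 fold change was 1.16 (SE 0.35, edgeR adjusted p = 0.160). In cultures Rab44 gave 16 and 23 counts in shHrs against 30 and 3 in shCTL of batch 1, which overlapped. In batch 2 it gave 12 and 31 counts in shHrs against 34 and 36 in shCTL, lower in shHrs without overlap. Rab44, Rab24 and Rab17 were the 3 of 43 Rab genes whose groups did not overlap in tumours, the first 2 higher in shHrs and Rab17 lower, against 4.28% of all genes, 2.00% higher and 2.28% lower.

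**Figure D5:**
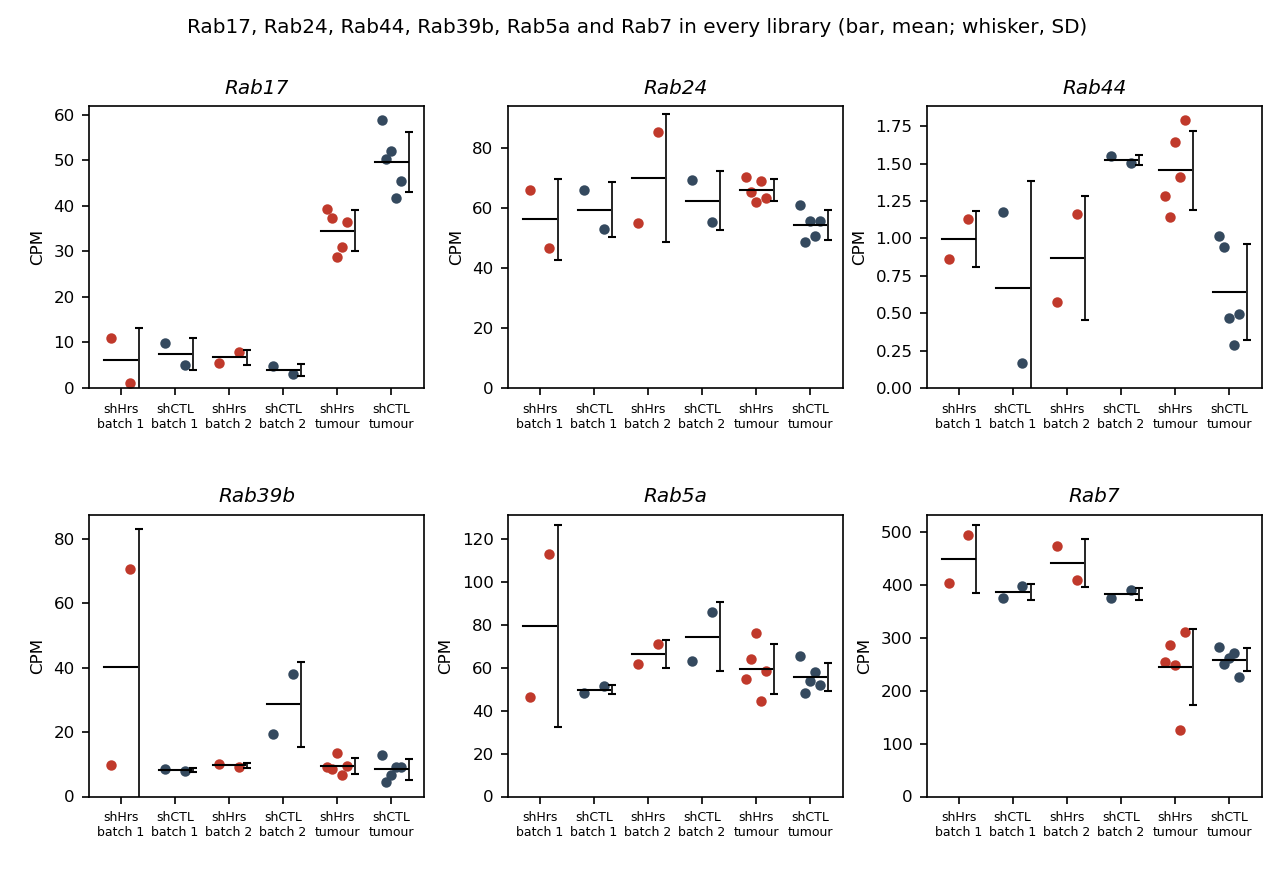
CPM of Rab17, Rab24, Rab44, Rab39b, Rab5a and Rab7 in every library of the 6 groups, with the mean as a bar and the SD as a whisker that ends at 0 where it would go below. Rab17 stands at 28.8 to 39.2 CPM in shHrs tumours against 41.7 to 58.9 CPM in shCTL tumours, and shHrs replicate 2 of batch 1 is high for Rab39b at 70.6 CPM and for Rab5a at 113 CPM.

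Rab5b stood at 115 to 149 CPM in shHrs tumours against 85.5 to 125 CPM in shCTL tumours (log2 fold change 0.31, SE 0.11, edgeR adjusted p = 0.231). Rab5a and Rab5c had 0.09 (SE 0.13) and 0.12 (SE 0.08). Rab15 stood at 1.51 to 3.53 CPM in shHrs against 0.821 to 2.05 CPM in shCTL tumours, with 37 to 70 and 16 to 37 counts. Lower in shHrs without passing were Rab3b of regulated secretion (-0.70, SE 0.29), Rab34 (-0.20, SE 0.08) and Rab2a of the Golgi (-0.17, SE 0.07). Rab7 stood at 254, 287, 249, 125 and 311 CPM in shHrs tumours against 282, 250, 262, 272 and 226 CPM in shCTL tumours. The tumour at 125 CPM was shHrs replicate 4, which was also the lowest shHrs tumour for Rab6a at 105 CPM, for Rab14 at 127 CPM and for Rab18 at 59.0 CPM. It was the lowest of the 5 shHrs tumours for 19 of the 45 Rab genes and the highest for 8. Without it the log2 fold change of Rab7 was 0.08, against -0.08 with it (SE 0.19).

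Markers of host cells differed widely from tumour to tumour. The 10 macrophage and myeloid markers summed to 221 to 1003 CPM in shHrs and 39.2 to 601 CPM in shCTL tumours, and the 5 pan-leukocyte markers to 37.5 to 211 CPM and 9.61 to 105 CPM. In both lists the highest tumour was shHrs replicate 4, where the 6 skeletal muscle markers also summed to 743 CPM, against 21.7 to 308 CPM in the other shHrs tumours and 4.98 to 173 CPM in shCTL tumours. Summed fibroblast markers ran from 183 to 1287 CPM in shHrs and from 197 to 2203 CPM in shCTL tumours, endothelial markers from 87.3 to 148 CPM and from 80.5 to 131 CPM, and erythroid markers from 27.7 to 146 CPM and from 57.4 to 1844 CPM. Markers of T and NK cells ran from 1.69 to 27.7 CPM in shHrs and from 0.234 to 7.62 CPM in shCTL tumours, those of B cells from 1.15 to 3.33 CPM and from 1.29 to 2.18 CPM, and those of keratinocytes from 0.0815 to 1.99 CPM and from 0 to 0.221 CPM. The 8 melanoma markers summed to 20434 to 27506 CPM and 20033 to 24902 CPM. None of 10 marker lists passed a two-sided exact permutation test over every split of the tumours with adjustment over the lists. The smallest p these splits allow is 0.00794, so a single list that separated fully could not have passed that adjustment. Erythroid markers had an unadjusted p of 0.0317 (adjusted 0.317). The part of these cells in the Rab values was not tested.

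The effect of the knockdown on Rab11b, Rab6b and Rab34 differed between tumours and the mean of the culture batches. The fit of all 18 libraries takes 1 spread per gene for cultures and tumours alike, so its SEs partly reflect the spread of the tumours. In that fit, the effect in tumours minus the mean effect of the batches was called for these 3 of 45 Rab genes, against 3.61% of 14458 genes. For Rab11b it was -0.86 on the log2 scale (SE 0.16, edgeR adjusted p = 0.00888). Rab11b stood at 84.2 to 97.9 CPM in shHrs tumours against 94.9 to 106 CPM in shCTL tumours (log2 fold change -0.11, SE 0.07), next to positive values in both batches. For Rab6b the difference was 0.93 (SE 0.20, edgeR adjusted p = 0.0182), with 22.3 to 30.6 CPM in shHrs against 25.04 to 29.2 CPM in shCTL tumours. The log2 fold change of Rab6b was -0.28 (SE 0.27) in batch 1, -1.68 (SE 0.28) in batch 2 and -0.03 (SE 0.10) in tumours. Batch 1 thus lay nearer to the tumours than batch 2 did, and single batches were not tested against tumours. For Rab34 it was -0.71 (SE 0.15, edgeR adjusted p = 0.0209), with 63.3 to 73.1 CPM in shHrs against 68.5 to 90.9 CPM in shCTL tumours.

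The same 3 were called by limma voom (3.18% of all genes), and DESeq2 called Rab3d, Rab5b and Rab8a beside them (9.75% of all genes). The call of Rab11b remained when any of the 18 libraries was left out. That of Rab6b was lost without shHrs replicate 2 or shCTL replicate 2 of batch 2 or shCTL replicate 1 of batch 1, with edgeR adjusted p of 0.0668, 0.0561 and 0.05002. That of Rab34 was lost without any of those 3 or shCTL replicate 1 of batch 2, with edgeR adjusted p of 0.0666, 0.0538, 0.0504 and 0.0561.

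Partners of the Rab proteins were taken from 5 lists. In batch 1 and in tumours 0 of their tested genes were called, beside 0% and 0.545% of all genes. In batch 2, of 50 effectors and tethers, 1 was higher and 3 lower, with a median log2 fold change of -0.02, where 1.6% of all genes were called higher and 2.43% lower. Ehbp1l1, which binds Rab8, rose to 200 and 241 CPM in shHrs against 87.3 and 99.7 CPM in shCTL (log2 fold change 1.19, SE 0.23). Ocrl, a phosphoinositide phosphatase that binds several Rabs, fell to 16.9 and 13.5 CPM against 35.0 and 47.2 CPM (-1.48, SE 0.29). Mical1, an actin-oxidising Rab effector, fell to 35.7 and 33.2 CPM against 87.3 and 99.9 CPM (-1.49, SE 0.32). Acap2, an Arf6 GAP that binds Rab35, fell to 93.8 and 73.2 CPM against 169 and 199 CPM (-1.19, SE 0.26).

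Of 37 exchange factors tested in batch 2, 1 was lower and 0 higher, with a median of -0.20, beside the same 2.43% and 1.6% of all genes. Dennd4a, an exchange factor of Rab10, fell to 24.2 and 17.3 CPM in shHrs against 98.3 and 117 CPM in shCTL (-2.42, SE 0.54). Of 37 TBC domain genes, 1 was lower and 0 higher, again beside 2.43% and 1.6%, with a median of -0.18. Wdr67, the older symbol of Tbc1d31, fell to 20.05 and 15.6 CPM against 122 and 97.3 CPM (-2.67, SE 0.34). The 8 genes of escort and prenylation (median 0.38) and the 7 Rab-like GTPases (median 0.24) had 0 calls. All of these called partners passed edgeR's test, with adjusted p from 0.0225 to 0.0493.

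In the difference between tumours and cultures, edgeR called 3 of 37 TBC genes higher and 1 lower, 1 of 50 effectors higher and 1 of 38 exchange factors higher, with adjusted p from 0.0186 to 0.0458, beside 2.12% of all genes higher and 1.49% lower. The TBC genes Tbc1d2b (1.34, SE 0.29), Wdr67 (1.15, SE 0.24) and Tbc1d9b (0.92, SE 0.22) were higher, and Tbc1d17 (-0.76, SE 0.19) was lower. Appl2, an effector of Rab5, was higher (1.24, SE 0.32), as was Dennd4b, an exchange factor of Rab10 (1.05, SE 0.26). Appl2 stood at 67.9 and 60.7 CPM in shHrs against 181 and 133 CPM in shCTL cultures of batch 2, and at 188 to 224 CPM in shHrs against 153 to 207 CPM in shCTL tumours.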

How the data were processed

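RNA was sequenced from 8 culture and 10 tumour libraries of B16F10 cells. Paired reads came from an Illumina HiSeq and NEBNext Ultra libraries, per the labels' protocols. The tools listed, per the submitters' processing notes, were STAR 2.4.0h2 and DESeq with mm10. The table the authors deposited holds raw counts per gene symbol. How reads were counted, with which annotation and strand, is not given in the sources at hand, so overlapping genes cannot be separated. Totals of 17.6 to 27.7 M counts set the precision, and intervals cover the spread between libraries as fitted. Libraries of a group differed by more than sampling noise (chi-square per degree of freedom 14.5 to 220.5) and were kept apart.

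The Rab genes, the partner lists, the motifs and the tests were chosen with earlier results of these data known. Counts were analysed in R 4.3.3 with edgeR 4.0.16: filterByExpr with a minimum count of 10, TMM, and the two-sided quasi-likelihood F test at 0.05, adjusted by Benjamini-Hochberg across every gene in the fit. The 8 cultures were fitted with a mean per batch and treatment, the 10 tumours on their own, and the difference between tumours and cultures over all 18 libraries with 6 group means. SE is the size of the log2 fold change over the root of F. CPM use TMM over all 18 libraries, and levels per kb divide by the union of GENCODE M21 exons (GRCm38). Marker lists were tested on the mean log2(CPM + 2) by exact permutation. Of 208 symbols in the lists, 8 were found by an older name and 2 not at all. DESeq2 1.42.0, limma voom 3.58.1, other scalings and filters, a replicate block and leaving out each library were tried. In simulations, 100 genes per comparison were given a 2-fold change and another 100 a 4-fold change, up or down. Of 2-fold changes, 2% were recovered in batch 2, 76% in tumours and 23% between tumours and cultures. Of 4-fold changes, 64%, 87% and 74% were recovered in the same order. False calls numbered 7, 6 and 5. More genes stood out in batch 2 itself than were changed in its simulation, so recovery in the data may differ. Not passing in batch 2 by itself says little about changes of 2-fold. Named genes are those called, the 4 with the smallest p in each direction per comparison, the highest and lowest levels, a fixed set of 18 of the main Rab genes and called partners, of which 1 is not reported here. The levels of Rab17 and Rab3a, the genes that set the shHrs libraries of batch 1 apart and the paralog shares shown were chosen after their values were seen.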

Additional observations from a re-analysis of the deposited data

Results flagged for a closer look

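Rab15 and Rab3b each had a tumour far from the rest of its group. Rab15 stood at 2.05 CPM in shCTL tumour 5, against 0.821 to 0.978 CPM in the other shCTL tumours. Rab3b stood at 1.61 CPM in shHrs tumour 2, against 0.774 to 0.997 CPM in the other shHrs tumours. These are 2 of 50 groups of tumours looked at, and chance flags about 1 in 20. Both genes are rare, with 17 to 40 counts per tumour for Rab3b.

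The effect of the knockdown differed between tumours and the mean of the culture batches, by a test of the difference itself, for Rab6b (0.93 on the log2 scale), Rab11b (-0.86) and Rab34 (-0.71).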

How the results depend on the processing

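Counts of called Rab genes under scaling by RLE or by total counts, under limma voom and under a filter of 10 counts in 4 of 18 libraries equalled the reported ones in every comparison. Without a filter edgeR called 1 in batch 1 (Rab39b), 5 in batch 2 and 3 between the batches. DESeq2 called 2, 4, 3, 2 and 6 in batch 1, batch 2, between the batches, in tumours and between tumours and cultures. Fitted on its own 4 libraries, batch 2 gave 10 called Rab genes and 4303 of 12637 genes (34.1%), where 520 genes (4.03%) were called with all cultures. The cause was not tested. Leaving out 1 library each, calls ran from 0 to 6 in batch 1, 0 to 6 in batch 2, 0 to 8 between the batches, 1 to 9 between tumours and cultures and 0 to 0 in tumours. The highest value of each of the first 4 came without shHrs replicate 1 of batch 1, and in batch 2 also without shHrs replicate 2 of batch 1. With fewer samples, all 0 values in batch 2 came without a batch 2 library.

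Over all genes, counts moved by over 1.5 times without a filter (438, 2224 and 1311 in batch 1, batch 2 and between the batches, where 0, 520 and 20 were reported) and with DESeq2 (220, 1988, 980, 549 and 1410 in the order above). The filter of 10 counts in 4 libraries gave 66 and limma voom 13 between the batches, and a fit of all 18 libraries gave 29 in tumours, where 72 were reported. Leave-one-out counts ran from 0 to 1496 in batch 1, 0 to 2732 in batch 2, 0 to 1968 between the batches, 32 to 158 in tumours and 125 to 2194 between tumours and cultures.

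For libraries of the same replicate number, deviations from the group mean correlated at 0.142 in batch 1, 0.0164 in batch 2 and -0.573 to 0.394 in tumours. With 2 libraries per group in cultures, unlike numbers must give the same value with the sign turned. The check therefore cannot tell whether the numbers mark pairs there. With the replicate block, 0, 1, 0, 0 and 2 Rab genes were called in the same order, and the call of Rab34 between tumours and cultures had an edgeR adjusted p of 0.0513 (log2 difference -0.69). Over all genes the block called 1, 464, 18, 2 and 373, and not every tumour correlated best with its own number.

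Signs of uncalled log2 fold changes near zero turned in some settings. With total counts only, Rab1 had -0.022 and Rab14 -0.065 in batch 2. With 1 library left out, values in batch 1 ran from -0.092 to 1.14 for Rab5a, -0.62 to 0.020 for Rab1b, -0.18 to 0.00033 for Rab2a, -0.54 to 0.15 for Rab5b, -0.37 to 0.072 for Rab11a and -0.52 to 0.00020 for Rab6b. In batch 2 they ran from -0.42 to 0.0075 for Rab4a, -0.41 to 0.015 for Rab5a, -0.058 to 0.29 for Rab6a, -0.38 to 0.037 for Rab9, -0.18 to 0.077 for Rab10 and -0.071 to 0.093 for Rab14. In tumours they ran from -0.021 to 0.073 for Rab1b, -0.0080 to 0.17 for Rab5a, -0.020 to 0.14 for Rab6a, -0.18 to 0.078 for Rab7, -0.081 to 0.022 for Rab6b, -0.023 to 0.047 for Rab8a, -0.037 to 0.054 for Rab10, -0.16 to 0.030 for Rab14 and -0.013 to 0.089 for Rab35. Depth limits Rab3b, Rab15, Rab25, Rab37 and Rab44, which had at most 77 counts in any library.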
